A study of Drosophila melanogaster with 12 samples.

Results

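The proteasome is the protease that breaks down proteins tagged with ubiquitin. Its 20S core is a barrel whose outer rings are built of alpha subunits and whose inner rings are built of beta subunits, and Prosbeta1, Prosbeta2 and Prosbeta5 carry the caspase-like, trypsin-like and chymotrypsin-like active sites. The 19S regulatory particle caps the barrel: the AAA-ATPases of its base (Rpt) unfold the substrate, non-ATPase subunits of the base (Rpn) bind ubiquitin, and the lid holds the deubiquitinase Rpn11 on a scaffold of other Rpn proteins. In Drosophila the transcription factor cnc is known to raise proteasome genes together, and the proteasome is needed for egg development in the ovary.

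All transcripts whose names begin with Prosalpha, Prosbeta, Rpn or Rpt followed by a digit were taken from the count table. This gave 43 of 15448 transcripts, each from a different gene. Of these, 31 are subunits of the canonical particle, with 7 alpha subunits, 7 beta subunits, 5 base ATPases, 4 non-ATPase base subunits and 8 lid subunits. The other 12 are paralogs whose names end in T or R, known in flies mainly from the testis, and they are described apart at the end. The base ATPase Rpt1 was not analysed here.

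RNA was measured in whole adult females of an outbred laboratory population, frozen on day 13 post egg collection after being reared on 1 of 4 isocaloric diets. The protein to carbohydrate (P:C) ratio of the food was 0.25, 0.40, 0.55 or 0.70, set by the amounts of sugar and yeast, and the population itself was kept at 0.40, which serves as the control diet. Diets are called by this ratio, as the 0.25 diet. There were 3 biological replicates per diet, each a pool of 12 flies, and the labels name no other difference between the groups than the diet. Between 6094226 and 13245114 counts were obtained per sample, and values are given as CPM, counts relative to a common library size after scaling by the trimmed mean of M-values (TMM). A pool of whole flies cannot tell fewer cells of a type from less RNA per cell. Some marker lists for tissues of the fly moved with diet, and their values are given after the results on the subunits.

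The canonical subunits were expressed at similar levels. Mean CPM over the 12 samples ran from 14.5 for Prosalpha1 to 367 for Rpn2, a scaffold of the base, with a median of 169, on a scale that grows with transcript length. Per kilobase of exonic length, which allows genes to be compared, 30 of the 31 subunits lay between 97.9 (Rpn9) and 199.9 (Prosalpha2) CPM per kb, a 2.04-fold span. The median per kb was 169 for the alpha subunits and 167 for the beta subunits. In the 19S particle the medians per kb were lower, at 114 for the ATPases, 110 for the non-ATPase base subunits and 120 for the lid. Among the catalytic subunits the level per kb was 169 for Prosbeta1, 167 for Prosbeta2 and 174 for Prosbeta5. The span of Rpn6 in the table differs from the current annotation, whose length was used.

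**Figure D1:**
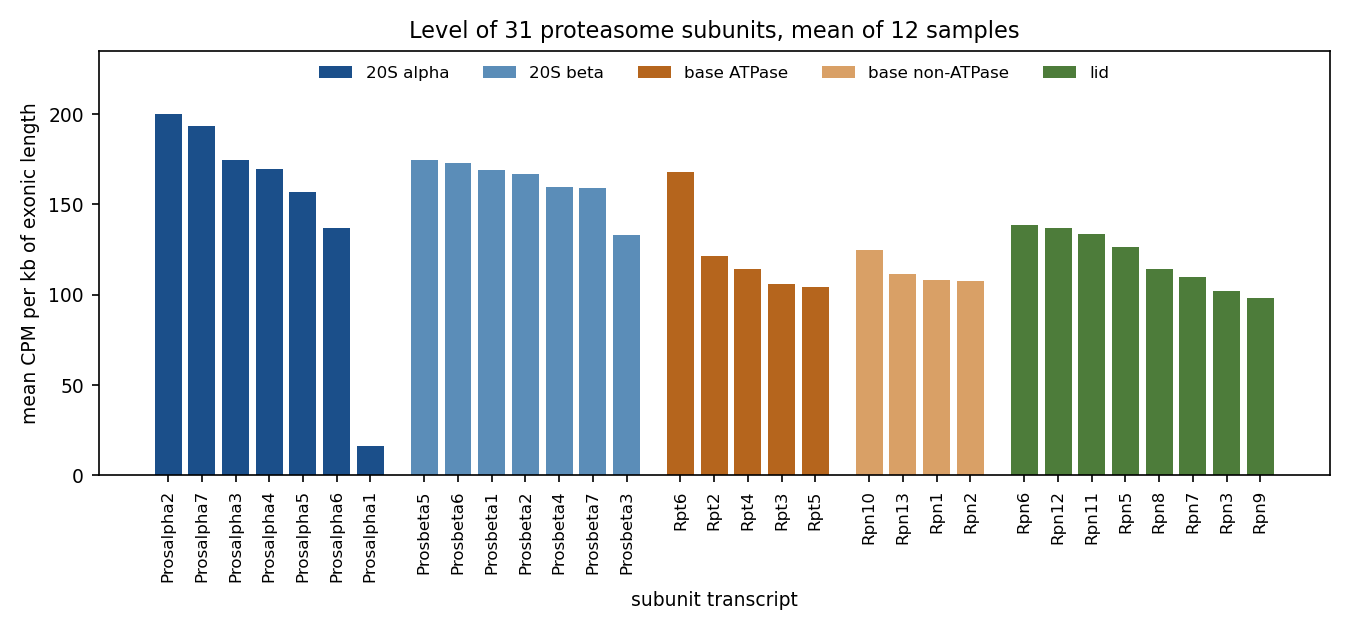
Mean level of each of the 31 canonical subunits over all 12 samples, as CPM per kb of exonic length, ordered within the 5 classes of the particle. 30 bars lie between 97.9 and 199.9 and Prosalpha1 stands at 16.1.

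Prosalpha1 was the exception, at 16.1 CPM per kb. Its transcript (2R:7827303-7828678 on dm6, minus strand) lies beside a second copy, CG30382 (2R:7830413-7831771, minus strand), which the current annotation names Prosalpha1R and which has the same coding length of 732 bases over 4 exons. CG30382 had a mean of 8.17 CPM. How reads that fit both copies were counted is not given in the sources used here, so the level of Prosalpha1 is uncertain. Its counts, 68 to 268 per sample, were also the lowest of the 31.

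The subunit genes are spread over the genome, with 9 each on 2R and 3R, 5 on 3L, 4 on 2L and 4 on X. The closest neighbours are Rpn9 and Rpt5 on 3R, 19.4 kb apart, and Rpn12 and Prosbeta6 on 3L, 25.4 kb apart. An annotated transcript of the opposite strand overlaps 15 of the 31, and for these a count made without strand would hold reads of both. The remaining 16 have no such overlap.

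Replicates of a diet agreed closely for these genes. Without Prosalpha1, the median SD of log2 CPM within a diet was 0.067, against 0.098 for the 1356 transcripts in the same range of mean CPM. What differences there were between replicates ran in step across the complex. After the mean of each diet was removed, the median correlation over the 12 samples was 0.53 among the 435 pairs of subunits, with 96.6% of pairs above 0. Among 1326 other transcripts of the same CPM range the median was 0.01, with 50.6% of pairs above 0. These correlations are a description, since all points of a sample share its library and its scaling. Other complexes were not compared in this way, and no library was left out.

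Summed over the 31 subunits, the level was lowest on the 0.25 diet and highest on the 0.70 diet. The sum was 5263, 5124 and 5463 CPM in the 3 samples on the 0.25 diet, and 5488, 5586 and 5456 CPM on the control diet. It was 5453, 5695 and 5685 CPM on the 0.55 diet, and 5891, 6215 and 5613 CPM on the 0.70 diet. The samples of the 0.70 diet lay above all those of the 0.25 and control diets but overlapped with those of the 0.55 diet, and the highest 0.25 sample lay above the lowest control sample. The ratio of the means was 1.12 between the 0.70 and 0.25 diets. A single library contributed strongly: replicate 2 of the 0.70 diet, which was also the deepest with 13245114 counts, had the highest CPM of the 12 samples for 27 of the 31 subunits. The lowest CPM fell in replicate 1 or 2 of the 0.25 diet for 11 and 16 subunits. How often other transcripts had their highest or lowest CPM in these libraries was not counted, so these numbers describe the subunits only.

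**Figure D2:**
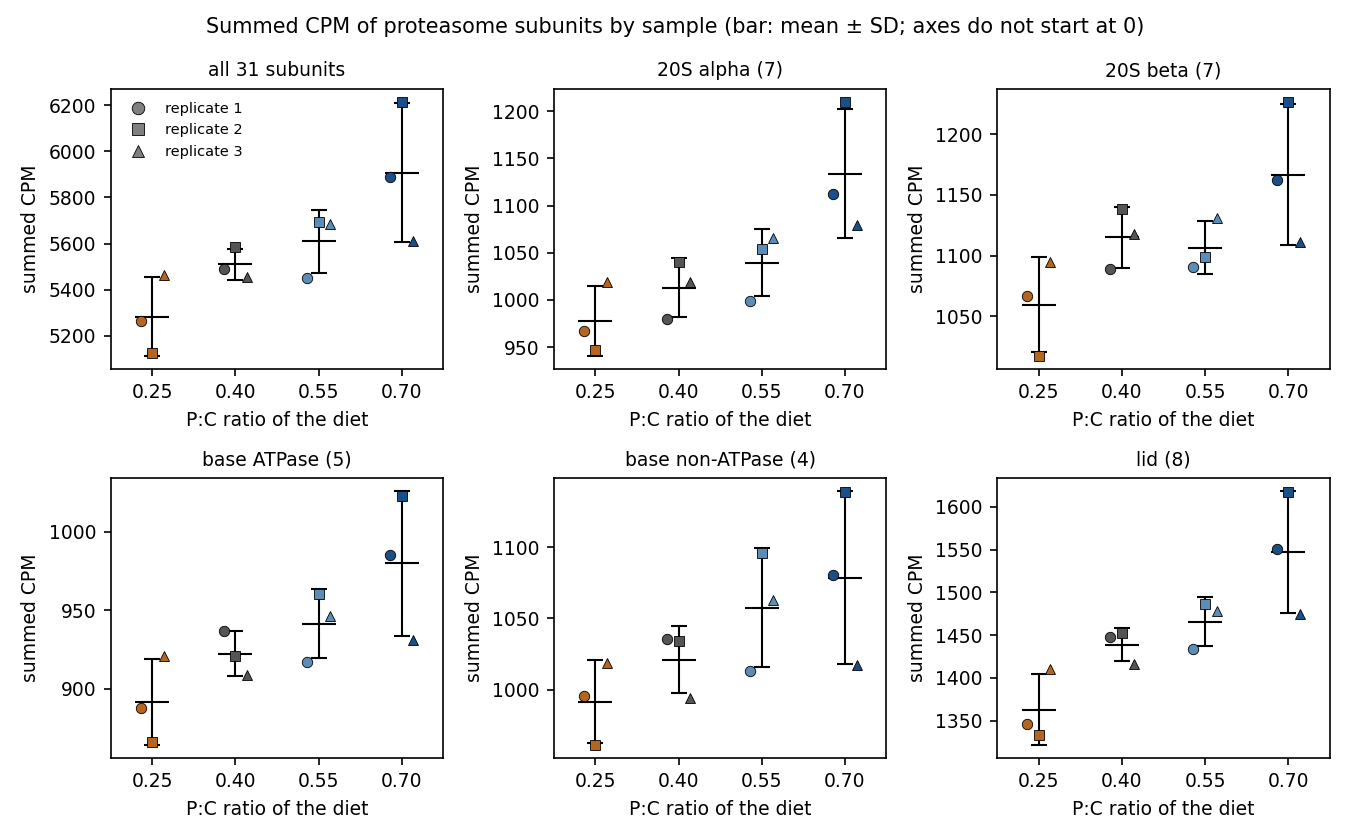
Summed CPM of all 31 subunits and of each class by sample, against the P:C ratio of the diet. Symbols mark the replicates, bars the mean ± SD of 3 samples, and the axes do not start at 0. For all 31 subunits the samples of the 0.70 diet run from 5613 to 6215 and those of the 0.25 diet from 5124 to 5463.

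Each class of subunit followed the same order between the outer diets. Summed alpha subunits averaged 978 ± 36.9 CPM (SD, n = 3) on the 0.25 diet and 1134 ± 68.0 CPM (SD, n = 3) on the 0.70 diet, a ratio of 1.16. The lid stood at 1363 ± 41.6 and 1547 ± 71.4 CPM, a ratio of 1.14. The ratio was 1.10 for the beta subunits, 1.10 for the ATPases and 1.09 for the non-ATPase base subunits. Differences between the classes were not tested. Among single subunits, the mean was highest on the 0.70 diet for 29 of 31 and lowest on the 0.25 diet for 28 of 31, and for 19 it rose at every step of the P:C ratio. The shares of all transcripts with these orders were not counted. Because the subunits varied together between samples, they are not separate observations of the diets.

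The direct comparison of the outer diets, 0.70 against 0.25, was made with edgeR's quasi-likelihood test on the 6 samples, with p adjusted over all 9845 transcripts tested. The point estimate was above 0 for all 31 subunits, as it was for 49.6% of all transcripts tested. The log2 fold changes ran from 0.03 (Prosbeta7) to 0.27 (Prosalpha6), with a median of 0.13 against -0.003 for all transcripts. In this comparison 15.8% of all transcripts tested passed an adjusted p of 0.05 in the upward direction and 22.8% in the downward direction. Of the 31 subunits, 4 passed, all higher on the 0.70 diet, which is a share near the background. None changed by more than 1.5-fold, the minimum used for a DE call, which 19.3% of all transcripts met in either direction with the same adjusted p. DESeq2 also gave 0 by this rule. By the adjusted p alone DESeq2 gave 5, all higher on 0.70, beside 11.9% of all transcripts in that direction. In edgeR 11 subunits had an unadjusted p under 0.05, against 51.2% of all transcripts. For 22 of the 31 every 0.70 sample was above every 0.25 sample, against 29.7% of all transcripts.

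The 4 subunits that rose were Prosalpha6 and Prosalpha2 of the alpha ring, Prosbeta4, a structural subunit of the beta ring, and Rpn5, a scaffold protein of the lid. Prosalpha6 (2L:10221351-10222546, plus strand) had 135, 119 and 144 CPM on the 0.25 diet and 159, 171 and 156 CPM on 0.70. Its log2 fold change was 0.27 ± 0.08 (SE, edgeR adjusted p = 0.0331). Every sample of the 0.70 diet was above every sample of the 0.25 diet. The control samples had 137, 153 and 139.7 CPM and those of the 0.55 diet 139, 148 and 155 CPM. Their means lay between those of the outer diets, while some of these samples fell within the range of the 0.25 diet.

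Prosbeta4 (2L:16731180-16732133, minus strand) had 114, 109 and 129 CPM on the 0.25 diet and 146, 149 and 133 CPM on 0.70, with a log2 fold change of 0.26 ± 0.08 (SE, edgeR adjusted p = 0.0409). Prosalpha2 (3R:12431321-12432556, plus strand) had 167, 168 and 176 CPM against 191, 215 and 196 CPM, a log2 fold change of 0.21 ± 0.07 (SE, edgeR adjusted p = 0.0431). Both overlap a transcript of the opposite strand, CG31812 for Prosbeta4 and Aos1 for Prosalpha2. Rpn5 (3R:5789493-5791569, plus strand), which has no such overlap, had 215, 229 and 219 CPM against 262, 276 and 243 CPM, a log2 fold change of 0.21 ± 0.07 (SE, edgeR adjusted p = 0.0457).

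These calls stood close to the threshold. The 4 became 0 without replicate 1 of the 0.25 diet, 1 without its replicate 2 and 2 without its replicate 3, while 5.81%, 19.4% and 4.92% of all transcripts passed in the upward direction. They became 0 without replicate 1 of the 0.70 diet, 0 without its replicate 2 and 5 without its replicate 3, beside 5.04%, 4.08% and 16% of all transcripts. Without replicates 1 or 3 of the 0.25 diet, or 1 or 2 of the 0.70 diet, calls were thus lost across the whole table and not among the subunits alone. Without replicate 2 of the 0.70 diet, the median log2 fold change was 0.10 and the point estimate was above 0 for 30 of the 31. With scaling by library size alone 19 subunits and 25.1% of all transcripts passed upward, and with the spread estimated from all 12 samples 13 subunits and 20.9% of all transcripts.

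Against the control diet, the P:C ratio of 0.70 gave smaller differences. The point estimate was above 0 for 30 of the 31 subunits and for 50.4% of all transcripts tested, with a median log2 fold change of 0.11 against 0.003 for all transcripts. Without replicate 2 of the 0.70 diet the median was 0.07. None of the 31 passed an adjusted p of 0.05 in edgeR, where 9.15% of all transcripts did (DESeq2 also gave 0, and 3 subunits had an unadjusted p under 0.05, against 32.8% of all transcripts). Without replicate 3 of the 0.70 diet 1 passed, beside 18.5% of all transcripts. For 9 of the 31 every 0.70 sample was above every control sample, against 18.3% of all transcripts.

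The smallest p values were those of Prosalpha7, Rpn12 and Prosalpha6. Prosalpha7, of the alpha ring, had 183, 178 and 182 CPM on the control diet and 206, 228 and 194 CPM on the 0.70 diet, a log2 fold change of 0.21 ± 0.07 (SE, edgeR adjusted p = 0.0927). Rpn12, a lid subunit, had 134, 136 and 125 CPM against 149.7, 156 and 143 CPM, a log2 fold change of 0.18 ± 0.07 (SE, edgeR adjusted p = 0.103). In both genes the 0.70 samples lay above the control samples although the adjusted p missed the threshold. Prosalpha6 had a log2 fold change of 0.17 ± 0.07 (SE, edgeR adjusted p = 0.121).

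Flies reared at a P:C ratio of 0.25 differed little from the control in these genes. The point estimate was below 0 for 27 of the 31 subunits and above 0 for 4, against 47.8% above 0 among all transcripts tested, with a median log2 fold change of -0.06 against -0.01 for all transcripts. Without replicate 2 of the 0.25 diet the median was -0.03, against -0.02 for all transcripts, and 6 subunits had a point estimate above 0. None passed an adjusted p of 0.05 in edgeR, where 0.708% of all transcripts did (DESeq2 also gave 0, and 0 subunits had an unadjusted p under 0.05, against 17% of all transcripts). The samples did not overlap, with the 0.25 samples lower, for 6 of the 31, against 9.73% of all transcripts. The smallest p values were those of Prosbeta4, at a log2 fold change of -0.14 ± 0.08 (SE, edgeR adjusted p = 0.417), and of the lid subunits Rpn9, at -0.11 ± 0.06 (SE, edgeR adjusted p = 0.424), and Rpn7, at -0.11 ± 0.07 (SE, edgeR adjusted p = 0.436).

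Flies on the intermediate diet, at 0.55, were the closest to the control. The point estimate was above 0 for 23 subunits and below 0 for 8, against 49.2% above 0 among all transcripts tested, with a median log2 fold change of 0.03 against -0.002 for all transcripts. Without replicate 2 or 3 of the 0.55 diet this median was 0.02. None passed an adjusted p of 0.05 in edgeR, where 0.0415% of all transcripts did (DESeq2 also gave 0, and 0 subunits had an unadjusted p under 0.05, against 3.6% of all transcripts). The 3 subunits with the smallest p were Rpn7 at -0.08 ± 0.07 (SE), the base scaffold Rpn1 at 0.07 ± 0.07 (SE) and the ATPase Rpt2 at 0.07 ± 0.07 (SE) on the log2 scale, all with an edgeR adjusted p over 0.99. Since the comparisons with the control diet share its 3 samples, they are not independent of one another.

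A linear slope on the P:C ratio, fitted over all 12 samples, gave more calls. The slope, the log2 change for a rise of the P:C ratio by 1, was above 0 for all 31, as it was for 51.8% of all transcripts tested. It ran from 0.06 (Prosbeta7) to 0.61 (Prosalpha6), with a median of 0.33 against 0.05 for all transcripts. In edgeR 17.1% of all transcripts passed an adjusted p of 0.05 with a rising slope and 36.7% in either direction. Of the 31 subunits, 11 passed, all rising, a share above the background for that direction, and 20 had an unadjusted p under 0.05, against 49.9% of all transcripts. Without replicate 2 of the 0.70 diet none passed in edgeR, where 4.31% of all transcripts rose, and the median slope was 0.27. In that fit 10 subunits had an unadjusted p under 0.05, and the share of all transcripts at that p was not counted. DESeq2 was not run without that library, and over all libraries it gave 13, beside 12.7% of all transcripts rising. Without replicate 1 of the 0.25 diet 2 passed, beside 4.71% of all transcripts rising, and without replicate 1 of the 0.70 diet 4 passed, beside 7.75%. In each of these fits the slope was above 0 for all 31. With library size alone 21 passed, beside 22.1% of all transcripts rising, the median slope of the subunits was 0.48 and that of all transcripts 0.19, so that the subunits lay 0.29 above the rest under either scaling.

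**Figure D3:**
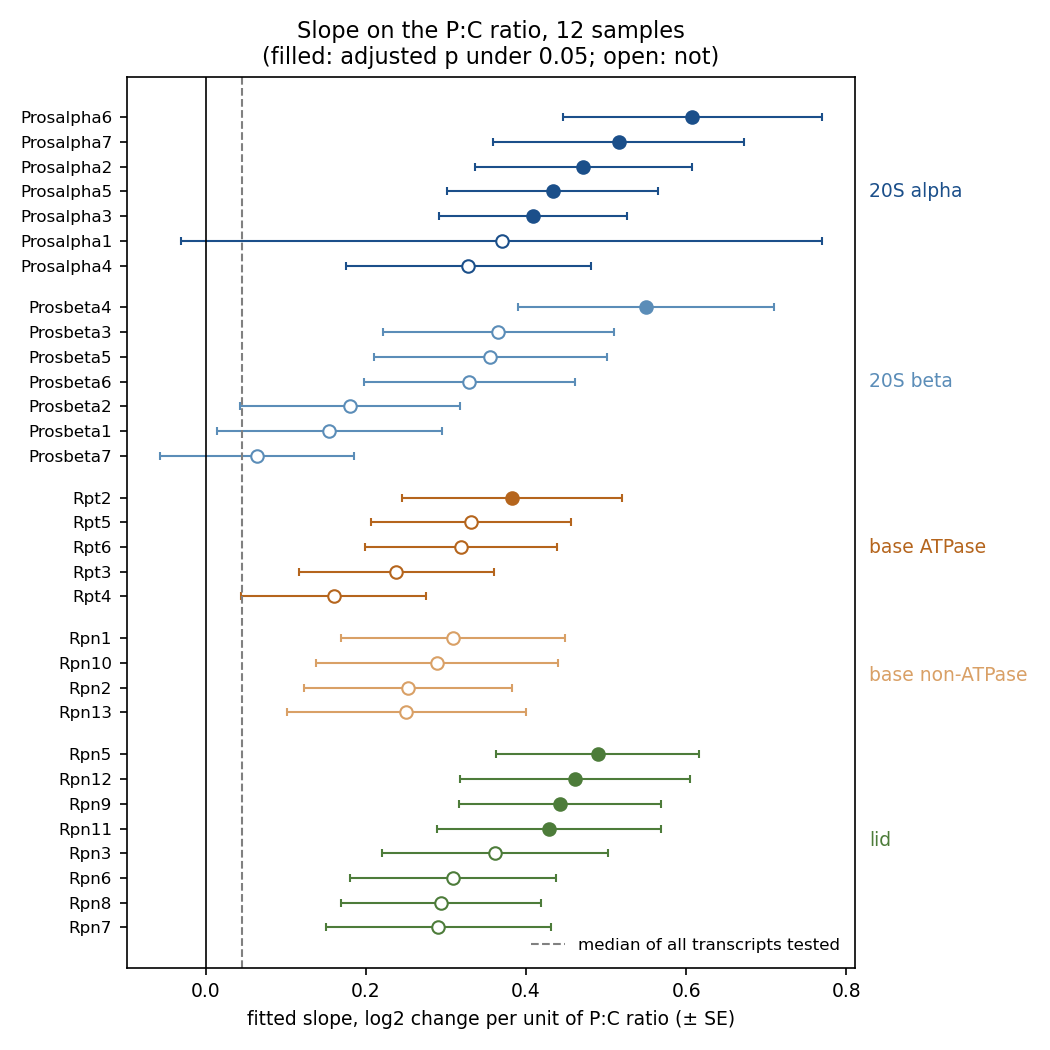
Fitted slope on the P:C ratio (log2 change per unit of the ratio, ± SE) of each canonical subunit over 12 samples, by class. Filled circles have an edgeR adjusted p under 0.05, and the dashed line is the median of all transcripts tested (0.05). All 31 points lie above 0, from 0.06 for Prosbeta7 to 0.61 for Prosalpha6, and 11 are filled.

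**Figure D4:**
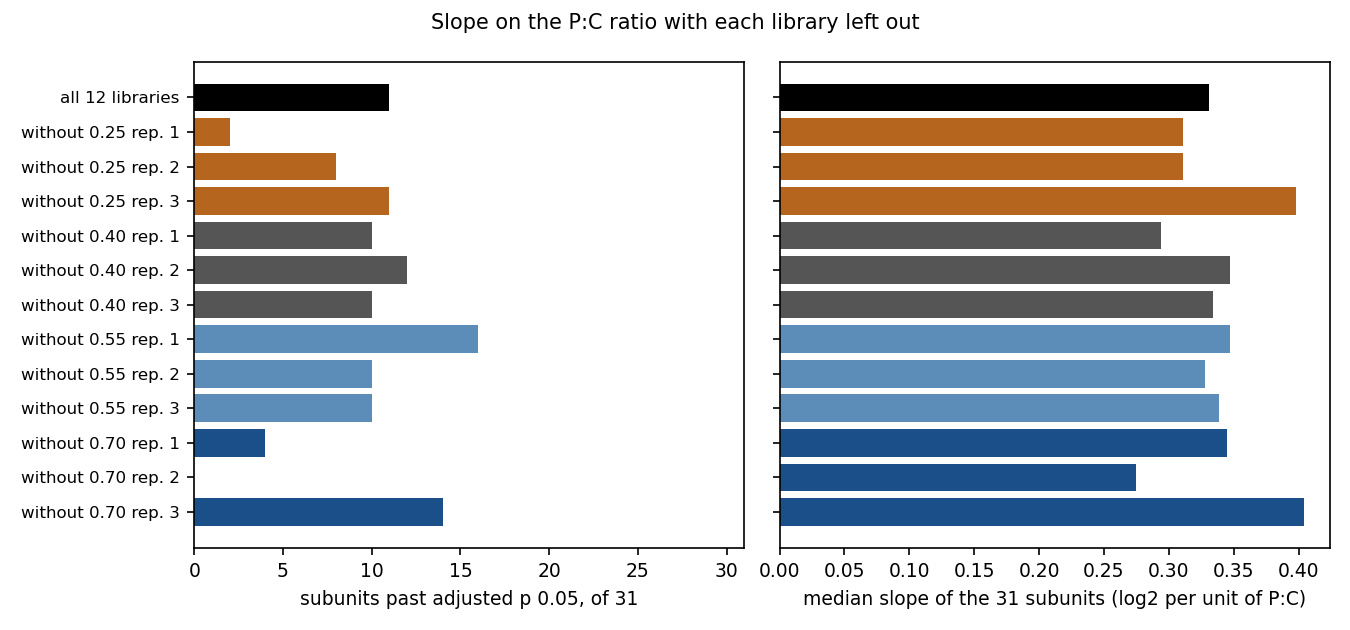
Number of subunits past an adjusted p of 0.05 for the slope (left) and the median slope of the 31 subunits (right) with each library left out in turn, coloured by diet. The count runs from 0 without replicate 2 of the 0.70 diet to 16 without replicate 1 of the 0.55 diet, and the median from 0.27 to 0.40. In the fits with the lowest and highest count, 4.31% and 21.6% of all transcripts passed with a rising slope.

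The 11 subunits that passed came mostly from the alpha ring and the lid, where 17.1% of all transcripts passed with a rising slope. Without replicate 2 of the 0.70 diet 0 subunits passed, beside 4.31% of all transcripts rising, so the counts by class do not hold without that library. Of the 7 alpha subunits 5 passed, namely Prosalpha2, Prosalpha3, Prosalpha5, Prosalpha6 and Prosalpha7, with a class median of 0.43. Of the 8 lid subunits 4 passed, namely Rpn5, Rpn9, Rpn11 and Rpn12, with a class median of 0.39. Of the 7 beta subunits only Prosbeta4 passed (median 0.33), of the 5 ATPases only Rpt2 (median 0.32), and of the 4 non-ATPase base subunits none (median 0.27). Whether the classes differ was not tested. Among the 16 subunits with no overlap on the opposite strand 7 passed.

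The smallest p belonged to Rpn5, with a slope of 0.49 ± 0.13 (SE, edgeR adjusted p = 0.0117). Between the outer diets, its control samples had 242, 227 and 238 CPM and the samples of the 0.55 diet 243, 239.9 and 240.1 CPM. Prosalpha6 had a slope of 0.61 ± 0.16 (SE, edgeR adjusted p = 0.0131). The lid subunit Rpn9 (3R:23731375-23733462, minus strand, overlapped by 2 transcripts of the opposite strand) had 139, 139.9 and 148 CPM on the 0.25 diet and 156, 156 and 149 CPM on the control diet. It had 159, 155 and 162 CPM on 0.55 and 167, 171 and 153 CPM on 0.70, with a slope of 0.44 ± 0.13 (SE, edgeR adjusted p = 0.0174). All samples of the 0.25 diet were below all others for Rpn9, while the higher diets overlapped.

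**Figure D5:**
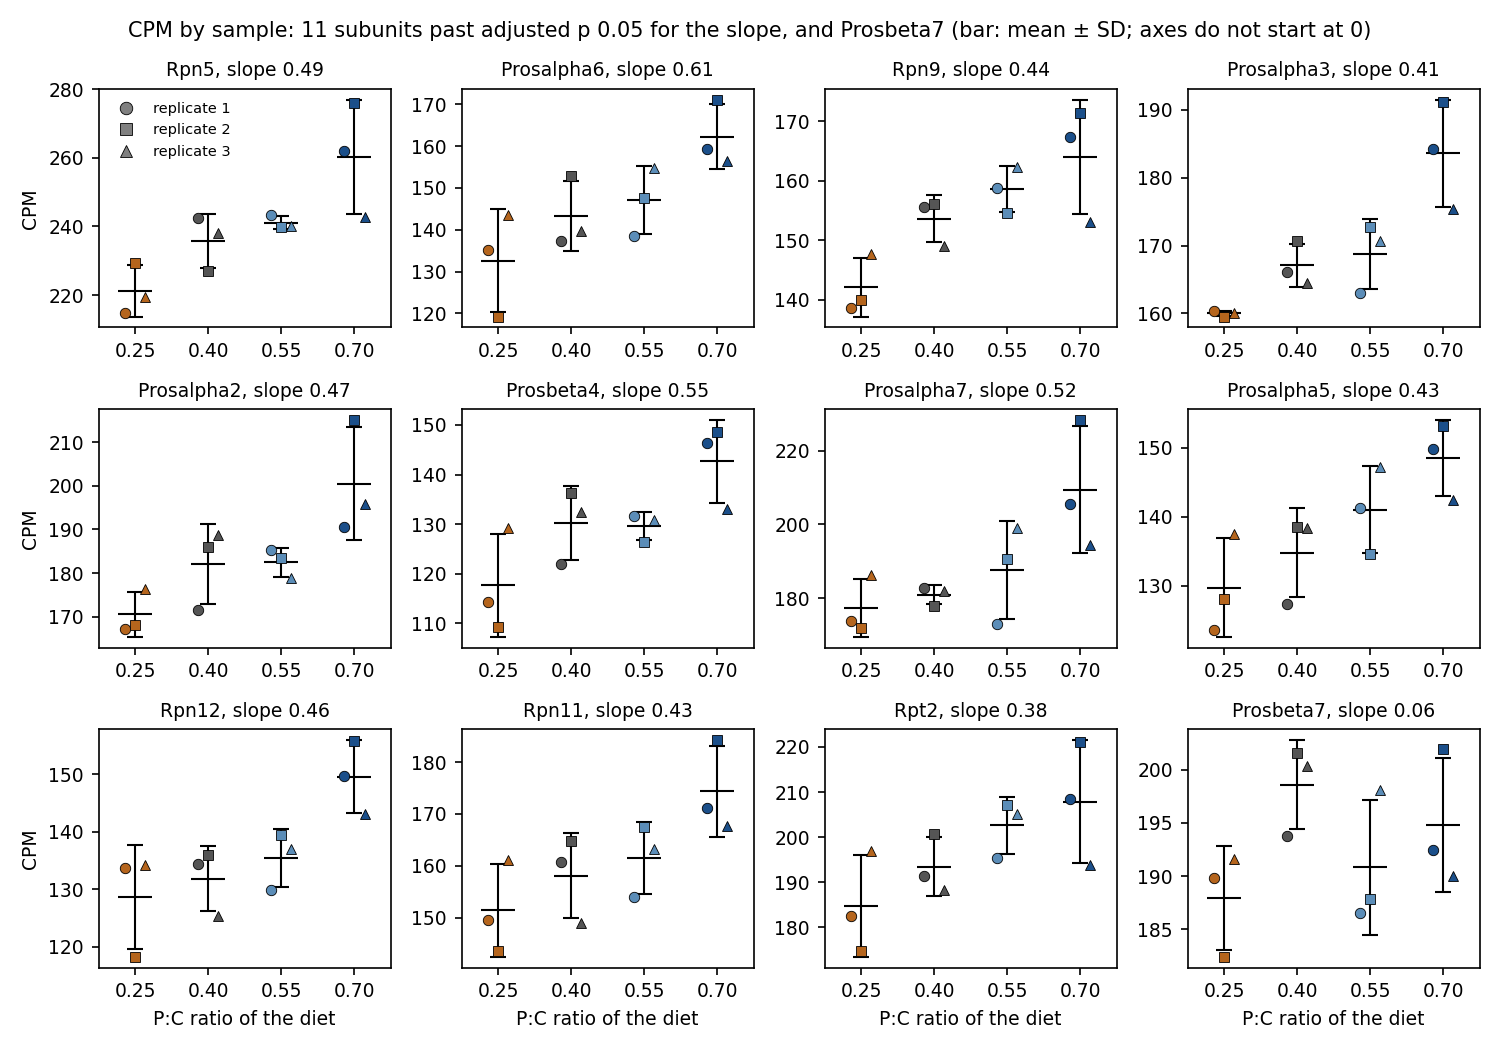
CPM by sample of the 11 subunits past an adjusted p of 0.05 for the slope, and of Prosbeta7, which has the smallest slope, against the P:C ratio of the diet. Symbols mark the replicates, bars the mean ± SD of 3 samples, and each axis has its own range that does not start at 0. Replicate 2 of the 0.70 diet (squares) is the highest of the 12 samples in each of the 11 panels, and in Prosbeta7 the 0.70 samples overlap with those of each other diet.

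Subunits that missed the threshold narrowly include the ATPase Rpt6, with a slope of 0.32 ± 0.12 (SE, edgeR adjusted p = 0.0501). Rpt6 had 229, 218 and 229 CPM on the 0.25 diet, 238, 234 and 223 CPM on the control diet, 229, 236 and 241 CPM on 0.55 and 258, 254 and 237 CPM on 0.70. Its 0.70 samples lay above those of the 0.25 diet and overlapped with the others. Among the subunits with the highest or lowest mean CPM of their class, the slope was 0.37 ± 0.14 for Prosbeta3 (SE, edgeR adjusted p = 0.0594), 0.31 ± 0.13 for Rpn6 (SE, adjusted p = 0.0708) and 0.25 ± 0.13 for Rpn2 (SE, adjusted p = 0.13). It was 0.33 ± 0.15 for Prosalpha4, 0.25 ± 0.15 for the ubiquitin receptor Rpn13 and 0.37 ± 0.40 for Prosalpha1 (SE), none past the threshold.

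None of the catalytic subunits passed for the slope. Prosbeta5 came nearest, with a slope of 0.36 ± 0.15 (SE, edgeR adjusted p = 0.0666). It had 179, 174 and 186 CPM on the 0.25 diet, 178, 189.7 and 186 CPM on the control diet, 178, 181 and 189.5 CPM on 0.55 and 205, 219 and 188 CPM on 0.70. Only the samples of the 0.70 diet stood apart from those of the 0.25 diet. The slope was 0.18 ± 0.14 (SE, edgeR adjusted p = 0.302) for Prosbeta2 and 0.15 ± 0.14 (SE, edgeR adjusted p = 0.389) for Prosbeta1. Prosbeta1 had 147, 130.4 and 147 CPM on the 0.25 diet and 148, 154 and 143 CPM on the 0.70 diet, which overlapped.

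Prosbeta7, a structural subunit of the beta ring, had 189.9, 182 and 192 CPM on the 0.25 diet and 192, 202 and 190.0 CPM on 0.70. Its control samples, at 194, 202 and 200.3 CPM, had the highest mean, and its slope was 0.06 ± 0.12 (SE, edgeR adjusted p = 0.688).

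Taking the diets as 4 unordered groups, edgeR's F test found no subunit past an adjusted p of 0.05, where 23.1% of all transcripts passed. At an unadjusted p under 0.05 there were 8, against 41.9% of all transcripts. DESeq2 gave 2 past the adjusted p, beside 22.8% of all transcripts. Without replicate 3 of the 0.70 diet 1 passed in edgeR, beside 23.4%.

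Other genes of the ubiquitin-proteasome system were taken from a list of 22 whose names the rule for subunits does not match, Sem1 among them. For the slope 7 of the 22 rose and 1 fell, where 17.1% of all transcripts rose and 36.7% passed in either direction, and the median slope was 0.38 against 0.05 for all transcripts. Unlike the calls for the subunits, these calls were not counted again with each library left out. CG5384, annotated as the proteasome-bound deubiquitinase Usp14, had 144, 140.1 and 154 CPM on the 0.25 diet and 182, 194 and 171 CPM on 0.70. Its slope was 0.64 ± 0.15 (SE, edgeR adjusted p = 0.0065). Uch-L5, the other deubiquitinase of the 19S particle, had 97.4, 105 and 106 CPM against 126, 133 and 120.2 CPM, with a slope of 0.59 ± 0.15 (SE, edgeR adjusted p = 0.0096). For both genes every sample of the 0.70 diet was above every sample of the 0.25 diet.

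Rad23, a shuttle that carries ubiquitinated proteins to the proteasome, had 161, 179 and 187 CPM on the 0.25 diet and 216, 254 and 208 CPM on 0.70, with a slope of 0.75 ± 0.21 (SE, edgeR adjusted p = 0.0157). The gene that fell was Npl4, a cofactor of the segregase TER94. It had 363, 329 and 366 CPM on the 0.25 diet and 249, 229 and 244 CPM on 0.70, with a slope of -1.19 ± 0.19 (SE, edgeR adjusted p = 0.0008). Its transcript is overlapped by 2 others. TER94 itself was among the 7 that rose, with a slope of 0.47 ± 0.14 (SE, edgeR adjusted p = 0.0198).

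The known activator and the known assembly factor of the particle did not pass. The transcript of cnc had 368, 313 and 355 CPM on the 0.25 diet and 335, 332 and 335 CPM on 0.70, with a slope of -0.03 ± 0.15 (SE, edgeR adjusted p = 0.9). Pomp, the chaperone that matures the 20S core, had 77.0, 73.6 and 83.7 CPM against 87.8, 97.4 and 80.9 CPM, with a slope of 0.40 ± 0.19 (SE, edgeR adjusted p = 0.112). The samples of the 2 diets overlapped in both genes.

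Other large complexes were set beside the proteasome. All 7 subunits found of the CCT chaperonin, a ring that folds actin and tubulin, rose with the P:C ratio, with a median slope of 0.54. Of 79 cytoplasmic ribosomal proteins tested, 71 had a slope below 0, with a median of -0.14, 1 rose and 1 fell. The share of all transcripts that rose was 17.1%. These are the values of each list over all 12 samples, with no library left out, and the difference between the lists was not tested.

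Markers of some tissues moved in the same samples. The 10 ovary germline markers summed to 1991 to 2397 CPM on the 0.25 diet, 2598 to 2700 on the control diet, 2487 to 2906 on 0.55 and 2719 to 2990 on 0.70, and 5 of the 10 had a rising slope past an adjusted p of 0.05 in edgeR, with a median slope of 0.51, where 17.1% of all transcripts rose. The 10 muscle markers summed to 6314 to 7721 CPM on 0.25 and 2081 to 2546 CPM on 0.70. All 10 had a falling slope past the same threshold, where 1941 of 9928 transcripts did. The 9 eggshell markers found, made by the follicle cells of the ovary, summed to 10152 to 16419 CPM on 0.25 and 10639 to 14828 CPM on 0.70, their median slope was -0.21, and none passed in edgeR (0 also at an unadjusted p under 0.05). Of 5 fat body markers tested 1 rose, and their median slope was 0.01. The marker calls were not counted again with a library left out. The part of these tissues in the values of the proteasome subunits was not tested.

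Of the 12 paralogs, 11 were at or near the limit of detection in these females. The counts of all 12 summed to 10 to 45 per sample, of which 7 to 44 were those of Rpt3R. A number of 3 counts, taken as the smallest detected, equals 0.226 to 0.492 CPM, a limit that covers counting error only. Prosalpha3T, Prosalpha4T2, Prosbeta2R1, Prosbeta4R1 and Prosbeta5R2 had 0 counts in all 12 samples. Prosalpha4T1, Prosalpha6T, Prosbeta2R2, Prosbeta5R1, Rpt4R and Rpt6R had at most 4 counts in any sample. Of 10 testis markers sought, 9 were found, 1 of them at 0 in all samples, and their sum was 48.9 to 57.8 CPM. Only 1 of the 9 passed the filter on low counts.

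The paralog with the highest level was Rpt3R, the 1 of the 12 that passed the filter on low counts. Its transcript overlaps CG8412. It had 4.14, 0.870 and 2.25 CPM on the 0.25 diet, 1.68, 1.23 and 1.35 CPM on the control diet, 0.883, 2.19 and 1.12 CPM on 0.55 and 2.03, 3.14 and 2.18 CPM on 0.70, from 7 to 44 counts. The samples of the 0.70 diet were above the control samples, with a log2 fold change of 0.81 ± 0.32 (SE, edgeR adjusted p = 0.122). For the slope the adjusted p was 0.876 in edgeR. The canonical ATPase for which it is named, Rpt3, had a mean of 164 CPM, with 153, 155 and 165 CPM on 0.25 and 174, 175 and 166 CPM on 0.70, and a slope of 0.24 ± 0.12 (SE, edgeR adjusted p = 0.13).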

How the data were processed

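Reads were trimmed and aligned to dm6 with hisat2 by the authors, who then counted them per transcript in Seqmonk. The table deposited holds those raw counts with no normalization, and a strand setting for counting is not given in the sources used here. Groups and replicate numbers came from the sample labels.

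Counts were tested with edgeR 4.0.16 in R 4.3.3 (filterByExpr, TMM, quasi-likelihood test), with Benjamini-Hochberg adjustment over all transcripts tested, for 4 pairs of diets, each on its own 6 samples (0.25, 0.55 and 0.70 against 0.40, and 0.70 against 0.25), and for a linear slope on the P:C ratio over all 12. A standard error is the size of the log2 fold change divided by the square root of F. Correlations used log2 CPM with a prior count of 2. Exonic and coding lengths came from the current Ensembl annotation of the same build. The steps were checked on simulated counts whose changes were larger than those of the subunits. How well changes as small as those of the subunits are recovered was not checked.

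Subunits were named by rule: up to 3 with the smallest p per comparison, the highest and lowest of each class, the catalytic subunits, and paralogs with a mean of at least 1 CPM. Other subunits are named where they complete a count, after their values were seen. The members, lists and alternatives were chosen with earlier results of these data known. The alternatives were DESeq2 1.42.0, its size factors in edgeR, scaling by library size alone, a fit of all 12 samples, other filters on low counts (none, or 10 counts per sample as the minimum), the diet's rank for its ratio, a block for the replicate number, and leaving out each sample.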

Additional observations from a re-analysis of the deposited data

How the results depend on the processing

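No median over the subunits changed sign under any alternative, and no subunit was DE with a change over 1.5-fold in any of the 4 pairs of diets tested under any of them. Shares of all transcripts that passed in the upward direction are given in brackets. With scaling by library size alone, which moves the median of all transcripts from 0.05 to 0.19 for the slope, 19 subunits passed for 0.70 against 0.25 (25.1%), 21 for the slope (22.1%) and 7 for any diet (25.8%, without direction), and the medians were 0.18 for 0.70 against 0.40, 0.24 for 0.70 against 0.25 and 0.48 for the slope. For 0.70 against 0.25, a minimum of 10 counts in every sample gave 2 (15.2%) and all 12 samples in one fit gave 13 (20.9%). DESeq2 gave 2 for any diet (22.8% without direction). With each replicate left out, the count ran from 0 to 1 for 0.70 against 0.40 (0.0304% to 6.99%) and 0 to 5 for 0.70 against 0.25 (4.08% to 19.4% over these fits). It ran from 0 to 16 for the slope (4.31% in the fit with the lowest count and 21.6% in that with the highest). For any diet it ran from 0 to 1 (8.69% to 29% over these fits, without direction). The median for 0.70 against 0.25 ran from 0.10 to 0.19. Those fits also held fewer samples, and the cause of the shifts in count was not tested.

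The correlation of deviations from the diet means lay between -0.34 and 0.34 for samples with the same replicate number. Of these pairs 4 of 18 were above 0.1. For different numbers it lay between -0.40 and 0.44, with 7 of 36 pairs above 0.1. Whether the numbers pair the samples was not tested. With the replicate number as a block, 2 subunits passed for 0.70 against 0.40 (11.4%, and 2.56% without the block). In either direction 26.9% of all transcripts passed there with the block and 9.15% without. With the block 2 subunits passed for 0.70 against 0.25 (17%, and 15.8% without) and 10 for the slope (16.9%, and 17.1% without).

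Of the values for single named subunits under an alternative, 188 stayed on their side of the threshold, 22 no longer passed and 3 newly passed. Many of the 188 belong to subunits that had not passed in the main fit, so this number does not measure how stable the calls were. Among the calls for 0.70 against 0.25, Prosalpha2 no longer passed in 8 of 13 alternatives, Prosbeta4 in 5 and Prosalpha6 in 4. For the slope, Rpn5 and Rpn9 each no longer passed in 2 of 19, and Prosalpha6 in 1. Replicates are separate pools of flies, and 3 per diet together with 6094226 to 13245114 counts limit the precision of changes as small as these.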
